A study of Mus musculus with 2 samples.

Results

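Matrix metalloproteinases (MMPs), ADAMTS proteases, the related ADAMTS-like proteins and the TIMP inhibitors were described in ureters of mouse embryos of stage E14.5. Members were all array probes whose gene symbol was Mmp, Adamts or Adamtsl followed by its number, or Timp1 to Timp4, which gave 68 probes of 51 genes among 39429 probes. They comprised 29 probes of 23 Mmp genes, 27 probes of 19 Adamts genes, 7 probes of 5 Adamtsl genes and 5 probes of 4 Timp genes. Per the labels, Bmp4cKO embryos were Tbx18(cre/+);Bmp4(fl/fl), in which cre expressed from the Tbx18 locus deletes the floxed alleles of Bmp4, a secreted growth factor, in cells of the ureteric mesenchyme. Controls were Tbx18(+/+);Bmp4(fl/?), so they carried at least 1 floxed allele and no cre. Both groups were of the NMRI strain. One copy of Tbx18 is replaced by cre in the Bmp4cKO group only. The sources used here do not say how many embryos an RNA stands for.

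MMPs are zinc-dependent endopeptidases that are secreted or held at the cell surface and cleave collagens, proteoglycans and other matrix and cell surface proteins. ADAMTS proteases are secreted relatives with thrombospondin repeats, which process procollagens, large proteoglycans and microfibril components, and ADAMTS-like proteins share these repeats but lack the protease domain. TIMPs bind the active site of these enzymes and block it. In the developing urinary tract, such enzymes are known for remodelling the matrix between epithelium and mesenchyme.

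There were 2 two-colour arrays, each with 1 RNA of either label, in opposite dye orientation. On replicate 1 Bmp4cKO-labelled RNA carried the green and control-labelled RNA the red dye, and on replicate 2 the dyes were the other way round. The share of spots well above background was 69.3% to 74.6% per channel, and with 2 arrays the precision is limited by their number. The targeted gene went against the labels: the log2 ratio of Bmp4cKO-labelled over control-labelled RNA was 3.04 and 3.71 for Bmp4 on replicates 1 and 2 (mean 3.38 ± 0.48, SD, n = 2 arrays; limma adjusted p = 0.0166). The sources used here do not say whether this probe lies within the deleted stretch. The other Bmp4 probe was above background in no channel, with a mean of 0.08. The Bmp4 direction therefore rests on the brighter probe alone. Tbx18 had ratios of 0.85 and 1.08 (mean 0.97; limma adjusted p = 0.0408). The authors' deposited table has the opposite sign for Bmp4, with signed folds of -8.16 and -13.9. All directions below are those of the dye labels, so that higher in Bmp4cKO-labelled RNA means the same direction as Bmp4, and every one of them turns if the labels of the RNAs were exchanged. Replicate 1 is labelled female and replicate 2 male, but on replicate 2 Xist had a processed signal of 2120 in Bmp4cKO-labelled RNA and 85.2 in control-labelled RNA, and the Y-linked Ddx3y 6.25, not above background, and 2720. The sex label of Bmp4cKO-labelled RNA on replicate 2 is therefore in doubt. Urothelial markers passed the test as higher for 5 of 7 genes and smooth muscle markers for 3 of 5, with median log2 ratios of 2.27 and 2.14 in Bmp4cKO-labelled RNA over control-labelled RNA. Smooth muscle and urothelial markers were detected in every RNA, as a ureter label requires.

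The probes that carry the results below are shown here, because a value belongs to a short stretch of a transcript rather than to a whole gene, and the probes of a gene did not always give the same value. For Adamts18, Adamts6, Mmp19, Timp4, the first Adamts16 probe and the first Timp2 probe, the first 30 of the 60 bases are printed, and the second Adamts16 and Timp2 probes are printed whole. Each is written 5′ to 3′ as the array files give it. Positions are those of the whole probe in mouse build mm9, and whether they fall in coding sequence or a UTR was not analysed here.
Adamts18 at chr8:116222720-116222779, minus strand: ccatagggtttaaagaatggacagatagcc
Adamts16, first probe at chr13:70867148-70867207, minus strand: gatgggggctatgatatagggctttgcata
Adamts16, second probe at chr13:70906800-70906859, minus strand: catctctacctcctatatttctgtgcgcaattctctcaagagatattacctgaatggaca
Adamts6 at chr13:105284737-105284796, plus strand: gtgagcttatggagatgatgccatgcggaa
Mmp19 at chr10:128236221-128236280, plus strand: gtgttcctagaaggtgtccacttaattctg
Timp4 at chr6:115196120-115196179, minus strand: ccagcaaatggaggctgtggggcatgtgac
Timp2, first probe at chr11:118163146-118163205, minus strand: ccgtgagcgttcttgtgccgtgttgatgcc
Timp2, second probe at chr11:118171964-118178741, minus strand: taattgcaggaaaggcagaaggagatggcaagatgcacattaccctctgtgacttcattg
The second Timp2 probe has 60 bases but spans 6778 bases of the genome, so it matches a spliced transcript.

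Of the 68 member probes, 49 probes of 38 genes passed the filter, which asked for a signal well above background in both Bmp4cKO channels or in both control channels. By gene, 34 of 51 were above background in all 4 channels, 6 in some and 11 in none. The families differed in how many of their genes were detected. All 4 Timp genes and 16 of 19 Adamts genes were above background in all 4 channels, against 10 of 23 Mmp genes. The 11 genes detected in no channel were Mmp1a, Mmp1b, Mmp3, Mmp8, Mmp12, Mmp13, Mmp20, Mmp21, Mmp27, Mmp28 and Adamts13. Of these, Mmp1a, Mmp1b, Mmp8 and Mmp13 form the collagenase group used here, named for enzymes that open the triple helix of fibrillar collagen. Mmp12 is the macrophage elastase. Adamts13 is the plasma protease that trims von Willebrand factor.

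The detected and undetected MMPs were unevenly placed in the genome. On chromosome 9, between 7282762 and 7697700 in mm9, lie 10 Mmp genes with 12 probes, Mmp13, Mmp12, Mmp1b, Mmp3, Mmp1a, Mmp10, Mmp8, Mmp27, Mmp20 and Mmp7. None of these 12 probes passed the filter, and only Mmp10, a stromelysin, and Mmp7, the matrilysin, were above background in any channel. Mmp10 had normalised intensities of 162 and 143 in Bmp4cKO-labelled RNA and 178 and 132 in control-labelled RNA, and was above background only on replicate 1, in both RNAs. No difference can be read from these 2 genes at this signal.

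Across the 49 probes tested, 5 passed the test for a difference between Bmp4cKO-labelled RNA and control-labelled RNA, 2 as higher and 3 as lower (limma, Benjamini-Hochberg over 27676 probes, adjusted p under 0.05). That is 10.2% of the members, beside 1.79% of all probes tested. The called members were Timp4 and Mmp19, higher, with 0.835% of all probes called higher, and Adamts18, Adamts16 and Adamts6, lower, with 0.958% of all probes called lower. Counting the called ones, 28 of 49 member probes (57.1%) were lower on both arrays and 11 (22.4%) higher on both, beside 30.8% and 28.4% of all probes. At an unadjusted p under 0.05 there were 15 member probes (30.6%), beside 14.3% of all probes. The second Adamts16 probe, Adamts3, Adamts20 and Adamtsl3 are among the 28. Adamts3 is also among the 15, and Mmp9 is among the 11 and the 15. Each of these passed the filter only through the label where it was higher. The median log2 ratio was -0.16 over the members and -0.0084 over all probes tested. By family it was -0.23 for Adamts, -0.10 for Adamtsl, -0.09 for Mmp and 0.23 for Timp. With 2 arrays, each call rests largely on the variance that limma shares over all probes, and under median centring in place of loess none of the 5 passed, although Adamts18 still had a log2 ratio of -1.83 and Timp4 one of 1.01.

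**Figure D1:**
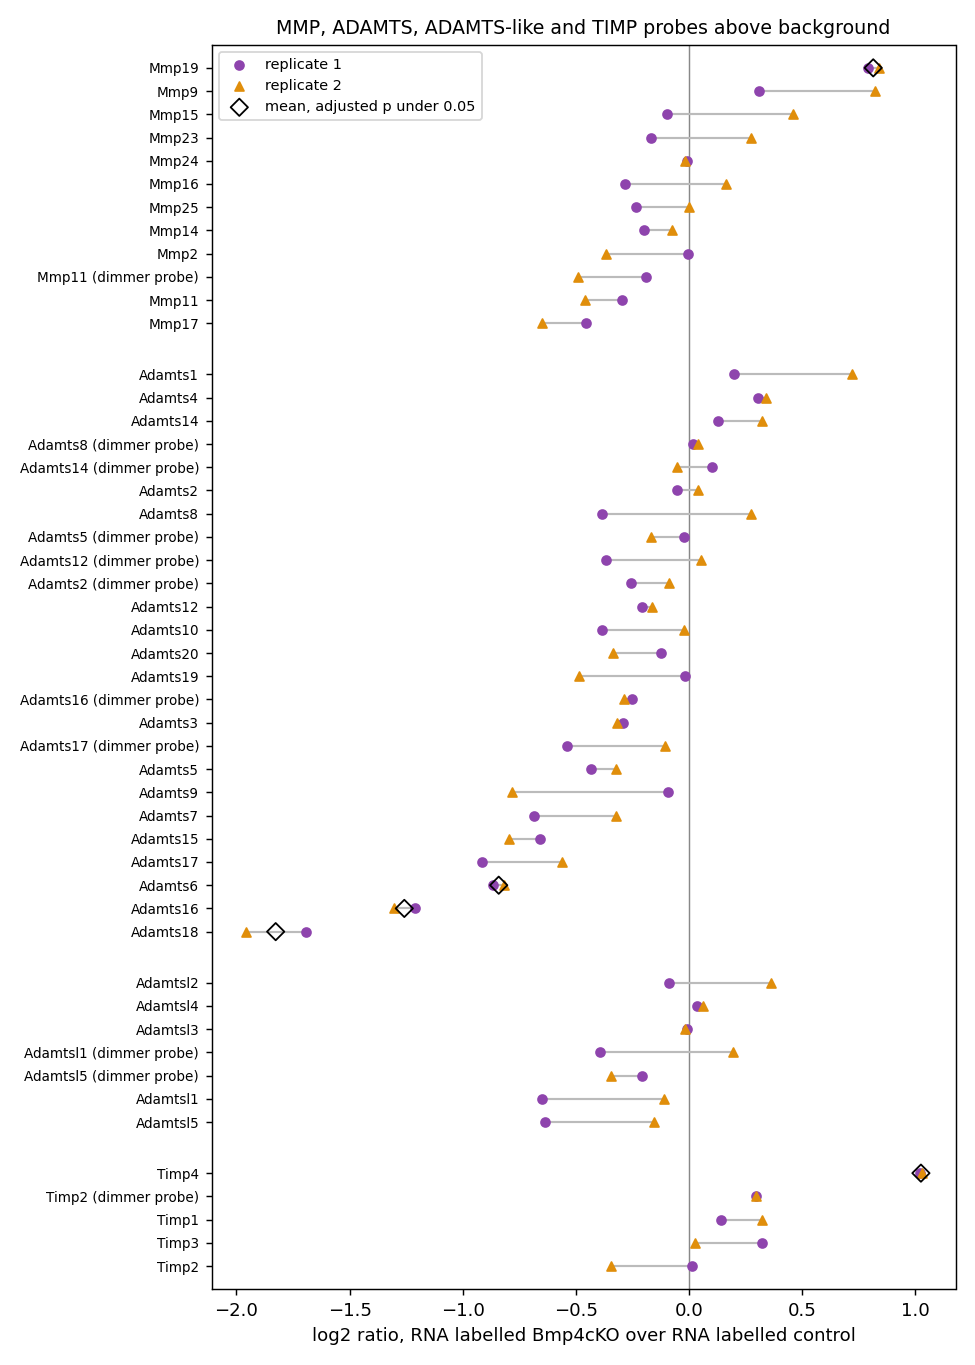
Log2 ratio of Bmp4cKO-labelled over control-labelled RNA (horizontal axis) for each of the 49 member probes above background, ordered by family, on replicate 1 (circles) and replicate 2 (triangles). Diamonds mark the means of the 5 probes with a limma adjusted p under 0.05, and the Adamts block extends to the left, down to -1.83 for Adamts18.

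Adamts18 had the lowest mean ratio among the members tested. It is a secreted protease without an assigned main substrate and is closest in sequence to Adamts16. Its normalised intensity was 607 and 502 in Bmp4cKO-labelled RNA, against 1963 and 1951 in control-labelled RNA. Both values labelled Bmp4cKO lay below both labelled control. The log2 ratio was -1.69 and -1.96 on replicates 1 and 2, a mean of -1.83 ± 0.19 (SD, n = 2 arrays), or 3.55-fold lower (limma adjusted p = 0.0193).

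Adamts16, its close relative, was also lower. Its first probe gave 362 and 338 in Bmp4cKO-labelled RNA, against 839 and 833 in control-labelled RNA, without overlap. The mean log2 ratio was -1.26 ± 0.06 (SD, n = 2 arrays; limma adjusted p = 0.0238). The second probe of Adamts16, which is the dimmer one, was not well above background in either Bmp4cKO-labelled RNA, where it measured 118 and 116, against 141 and 142 in control-labelled RNA. It was at least 1.11-fold lower in Bmp4cKO-labelled RNA (limma adjusted p = 0.398). This probe passed the filter only through control-labelled RNA, so its lower value adds nothing to that of the first probe.

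Adamts6, which belongs with Adamts10 and acts on fibrillin microfibrils, was the third called member among those lower. Its normalised intensity was 740 and 588 in Bmp4cKO-labelled RNA, against 1348 and 1036 in control-labelled RNA. The mean log2 ratio was -0.84 ± 0.03 (SD, n = 2 arrays; limma adjusted p = 0.0446). This call ended when the 4 channels were fitted with no replicate block (limma adjusted p = 0.130). Adamts10 did not pass the test, with a mean of -0.20.

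The other tested ADAMTS genes outside the hyalectanase and procollagen groups had negative mean log2 ratios, without passing the test. Counting Adamts18, Adamts6 and both probes of Adamts16, 10 of 11 probes tested in this group were lower on both arrays, beside 30.8% of all probes. This count includes the second Adamts16 probe, which passed the filter only through control-labelled RNA. The group's median was -0.32, beside -0.0084 over all probes tested. Adamts17, linked to fibrillin in human connective tissue disease, measured 968 and 1536 in Bmp4cKO-labelled RNA, against 1825 and 2263 in control-labelled RNA. Its mean log2 ratio was -0.74 ± 0.25 (SD, n = 2 arrays; limma adjusted p = 0.0863), and its second probe gave -0.32. Adamts7 and Adamts12, relatives that cleave cartilage oligomeric matrix protein, gave means of -0.50, and of -0.19 and -0.16 over the 2 probes of Adamts12. Adamts19, the nearest relative of Adamts17, had 3705 and 2661 in Bmp4cKO-labelled RNA, against 3747 and 3726 in control-labelled RNA. Its difference of -0.25 ± 0.33 (SD, n = 2 arrays) is within the spread between the arrays.

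**Figure D2:**
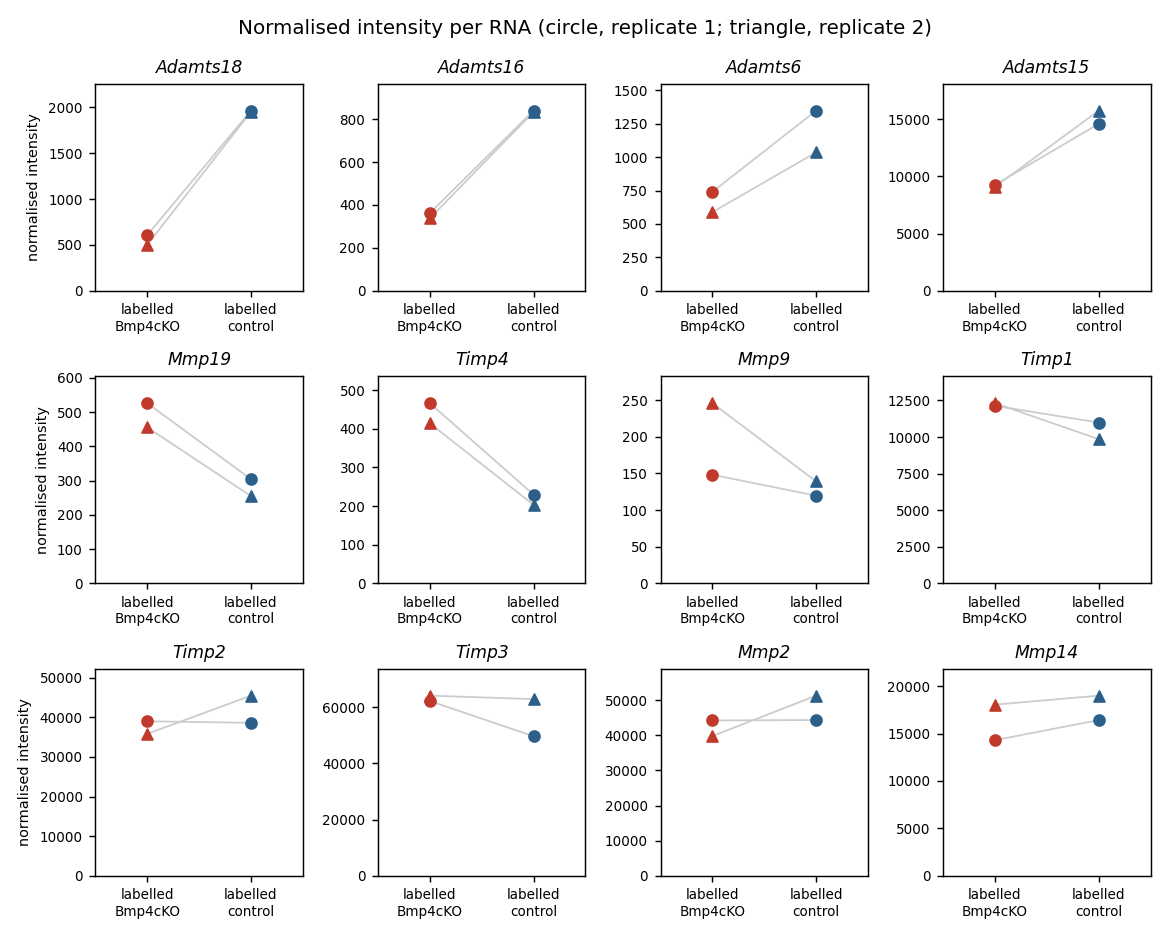
Normalised intensity (vertical axes, linear, from 0) of 12 genes in Bmp4cKO-labelled RNA (red, left) and control-labelled RNA (blue, right), with circles for replicate 1, triangles for replicate 2 and lines joining the RNAs of an array; genes with more than 1 probe are shown by the brighter one. Adamts18, Adamts16, Adamts6 and Adamts15 lie lower and Mmp19 and Timp4 higher in Bmp4cKO-labelled RNA, while the values of Timp2, Timp3 and Mmp14 overlap.

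The hyalectanases, which cleave aggrecan, versican and related proteoglycans, went in both directions. None of their 9 probes passed the test in limma, though 2 higher and 2 lower ones had an unadjusted p under 0.05. Over all probes tested, 14.3% had such a p in limma. On sign alone, 5 were lower and 3 higher on both arrays, beside 30.8% and 28.4% of all probes. Adamts20 is among the 5 and passed the filter only through control-labelled RNA. The median of the 9 was -0.09. Adamts15 was the nearest to the threshold among all members that missed it, with 9257 and 9087 in Bmp4cKO-labelled RNA, against 14601 and 15751 in control-labelled RNA. Its values did not overlap, and the mean log2 ratio was -0.73 ± 0.10 (SD, n = 2 arrays; limma adjusted p = 0.0644). It passed with normexp at offset 0 (limma adjusted p = 0.0409), with an intensity trend (0.0133) and with a robust prior (0.0477). It was 1 of the 4 member probes at least 1.5-fold lower on both arrays, the others being the 3 called ones, beside 1.99% of all probes. Adamts9, a versicanase of developing tissues, measured 31757 and 25107 in Bmp4cKO-labelled RNA, against 33876 and 43215 in control-labelled RNA, with ratios of -0.09 and -0.78 that differ between the arrays. Adamts1, another versicanase, measured 35292 and 47658 in Bmp4cKO-labelled RNA, against 30732 and 28952 in control-labelled RNA. Its mean log2 ratio of 0.46 ± 0.37 (SD, n = 2 arrays) did not pass the test (limma adjusted p = 0.306).

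The main aggrecanases of cartilage, Adamts4 and Adamts5, had mean ratios of opposite sign. Adamts4 gave 0.31 and 0.34 on the 2 arrays, and the brighter Adamts5 probe -0.43 and -0.32 (limma adjusted p = 0.307 and 0.248). The second Adamts5 probe gave a mean of -0.09. Adamts20 gave -0.23 and was not above background in Bmp4cKO-labelled RNA of replicate 2, so it passed the filter only through control-labelled RNA. Adamts8 had a brighter probe with -0.39 and 0.27 on replicates 1 and 2 and a dimmer one with a mean of 0.03, so neither a sign nor a size can be given for it.

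The values of neighbouring hyalectanase genes were also set side by side, without a test. Adamts15 and Adamts8 are neighbours on chromosome 9 between 30707033 and 30770443 (mm9), with means of -0.73 for Adamts15 and -0.06 and 0.03 for the probes of Adamts8. Adamts1 and Adamts5 are neighbours on chromosome 16 between 85795044 and 85899509, with means of 0.46 for Adamts1 and -0.38 and -0.09 for the probes of Adamts5.

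The procollagen N-propeptidases, which trim the amino ends of fibrillar procollagens, did not pass the test in limma with any of 5 probes, 1 of which was lower at an unadjusted p under 0.05, and their median was -0.0055. Adamts2 measured 4220 and 4948 in Bmp4cKO-labelled RNA, against 4373 and 4811 in control-labelled RNA, values that overlap. Its mean log2 ratio was -0.0055 ± 0.065 (SD, n = 2 arrays). Adamts3, which also serves the processing of VEGF-C, measured 136 and 135 in Bmp4cKO-labelled RNA, against 166 and 169 in control-labelled RNA, with a mean log2 ratio of -0.30 ± 0.02 (SD, n = 2 arrays; limma adjusted p = 0.336). It was not above background in Bmp4cKO-labelled RNA of replicate 2, so it passed the filter only through control-labelled RNA. Adamts3 is the 1 probe counted above as lower in limma without adjustment. Its direction is therefore not read as a result. Adamts14 gave means of 0.22 and 0.03 over its 2 probes.

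The ADAMTS-like proteins, which bind microfibrils and do not cleave, had all 5 genes detected and none called by limma, nor any at an unadjusted p under 0.05. Their 7 probes had mean log2 ratios between -0.40 and 0.14. Adamtsl5 had the lowest, with 2728 and 3009 in Bmp4cKO-labelled RNA, against 4244 and 3353 in control-labelled RNA (mean log2 ratio -0.40 ± 0.34, SD, n = 2 arrays; limma adjusted p = 0.355). Its ratios of -0.64 and -0.16 differ between the arrays by more than the mean. Adamtsl1 showed a like spread, with -0.65 and -0.11, and Adamtsl2, Adamtsl3 and Adamtsl4 had means of 0.14, -0.01 and 0.05.

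**Figure D3:**
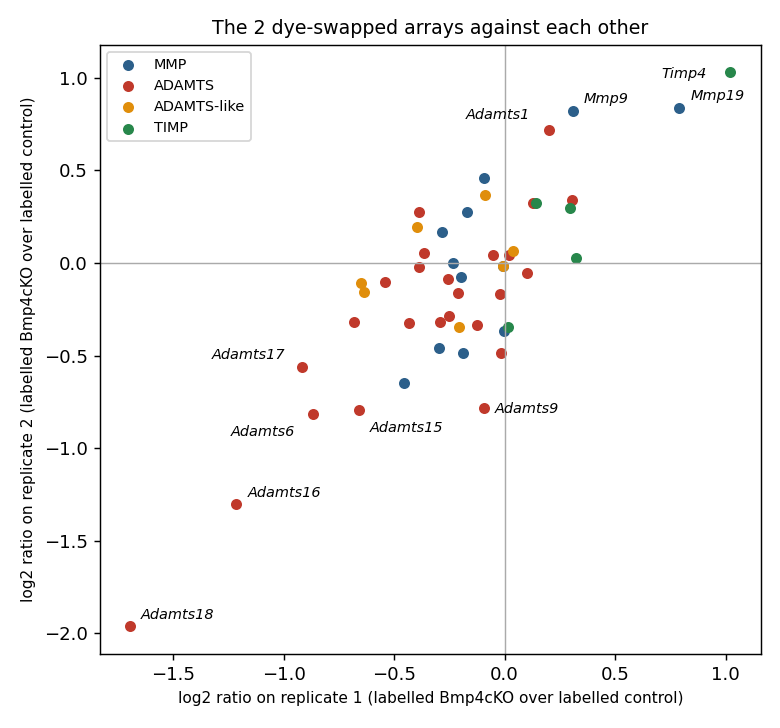
Log2 ratio of Bmp4cKO-labelled over control-labelled RNA on replicate 1 (horizontal axis) against replicate 2 (vertical axis), 1 point for each of the 49 member probes tested, coloured by family. Pearson's r was 0.805 across these probes and 0.467 across all probes tested, and Adamts18 and Adamts16 at the lower left and Timp4 at the upper right lie far from the centre.

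Among the MMPs, Mmp19 was the only member called, as higher in Bmp4cKO-labelled RNA. It is a secreted metalloproteinase that cleaves basement membrane proteins. Its normalised intensity was 526 and 455 in Bmp4cKO-labelled RNA, against 304 and 255 in control-labelled RNA, without overlap. The mean log2 ratio was 0.81 ± 0.03 (SD, n = 2 arrays), or 1.76-fold higher (limma adjusted p = 0.0487). The call is at the edge: it ended with no replicate block (limma adjusted p = 0.0831) and when probes had to be above background in all 4 channels (0.0502).

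The gelatinases Mmp2 and Mmp9 cleave denatured collagen and basement membrane collagen, and neither passed the test. Mmp2 measured 44231 and 39791 in Bmp4cKO-labelled RNA, against 44354 and 51296 in control-labelled RNA, with a mean log2 ratio of -0.19 ± 0.26 (SD, n = 2 arrays; limma adjusted p = 0.668). Mmp9, which neutrophils also make, measured 148 and 246 in Bmp4cKO-labelled RNA, against 120 and 139 in control-labelled RNA. It was the only member gene above background in both Bmp4cKO-labelled RNAs and in neither control-labelled one. The log2 ratio was 0.31 and 0.82 on replicates 1 and 2, or 1.48-fold higher on average (limma adjusted p = 0.210). This fold is the plain ratio and not a lower bound. Mmp9 passed the filter only through Bmp4cKO-labelled RNA, so its direction is not read as a result. Of the neutrophil markers, 4 of 4 measured passed the filter and limma called none. On replicates 1 and 2, S100a8 gave 1.82 and 0.65, S100a9 2.02 and 0.23, and the brighter Mpo probe 0.29 and 0.48. These 3 were higher on both arrays, each with an unadjusted p under 0.05 in limma. Elane gave -0.03 and -0.06. The summed processed signal of the 4 was 1601 and 1168 in Bmp4cKO-labelled RNA and 916 and 1037 in control-labelled RNA. None of the 4 was below background in every channel. Their part in the Mmp9 value was not tested.

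The membrane-type MMPs act at the cell surface, and all 6 genes were above background in all 4 channels. Mmp14, which activates the Mmp2 proenzyme together with Timp2, measured 14311 and 18056 in Bmp4cKO-labelled RNA, against 16421 and 19002 in control-labelled RNA. These values overlap, and the mean log2 ratio was -0.14 ± 0.09 (SD, n = 2 arrays; limma adjusted p = 0.721). Mmp17, which is held by a glycolipid anchor, measured 1629 and 1449 in Bmp4cKO-labelled RNA, against 2234 and 2273 in control-labelled RNA. Its mean log2 ratio of -0.55 ± 0.14 (SD, n = 2 arrays) did not pass the test (limma adjusted p = 0.123). Mmp25, with the same kind of anchor, gave -0.12, and the transmembrane enzymes Mmp15, Mmp16 and Mmp24 gave 0.18, -0.06 and -0.01.

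Mmp11, the stromelysin of stromal cells that is activated inside the cell, was the only gene of the stromelysin group tested. Its brighter probe measured 21357 and 22748 in Bmp4cKO-labelled RNA, against 26222 and 31240 in control-labelled RNA, and both its probes were lower on both arrays, with means of -0.38 and -0.34 (limma adjusted p = 0.259 and 0.350). Mmp23, a membrane-bound enzyme of unusual domain structure, measured 5171 and 5795 in Bmp4cKO-labelled RNA, against 5813 and 4797 in control-labelled RNA, and its ratios had opposite signs on the 2 arrays.

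All 4 inhibitors were detected in every RNA. Timp4, the TIMP of the most restricted tissue range, was called as higher: it measured 466 and 414 in Bmp4cKO-labelled RNA, against 230 and 203 in control-labelled RNA. The groups did not overlap, and the log2 ratio was 1.02 and 1.03 on the 2 arrays, a mean of 1.03 ± 0.0048 (SD, n = 2 arrays), or 2.04-fold higher (limma adjusted p = 0.0326). Timp4 and Mmp19 were the 2 member probes at least 1.5-fold higher on both arrays, beside 1.64% of all probes.

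The other TIMPs did not pass the test. Timp1, the X-linked inhibitor, measured 12128 and 12314 in Bmp4cKO-labelled RNA, against 10988 and 9852 in control-labelled RNA, a mean log2 ratio of 0.23 ± 0.13 (SD, n = 2 arrays; limma adjusted p = 0.499). Timp3, which binds the matrix and also blocks ADAMTS proteases, measured 62248 and 64167 in Bmp4cKO-labelled RNA, against 49714 and 62934 in control-labelled RNA, values that overlap and give a mean of 0.18. The first Timp2 probe measured 38994 and 35818 in Bmp4cKO-labelled RNA, against 38592 and 45458 in control-labelled RNA, with ratios of 0.01 and -0.34. The second Timp2 probe, whose sequence crosses a splice junction, measured 15820 and 17204 in Bmp4cKO-labelled RNA, against 12898 and 14014 in control-labelled RNA, with a mean log2 ratio of 0.30 (limma adjusted p = 0.349). The 2 probes of Timp2 thus had means of opposite sign, and neither passed the test.

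Of the 17 member genes with 2 probes, 11 had both tested, and in 9 of these the 2 means had the same sign. Adamts16 is among the 9, but its dimmer probe passed the filter only through control-labelled RNA. Its sign is therefore not read as agreement between the probes. The exceptions were Timp2 and Adamts8. The median difference between the probes of a gene was 0.20 on the log2 scale, and the largest was 0.99, for Adamts16. With processed signals the brighter Adamts16 probe gave -1.47 and the dimmer one -1.19, so the size of this gap depends on the processing.

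**Figure D4:**
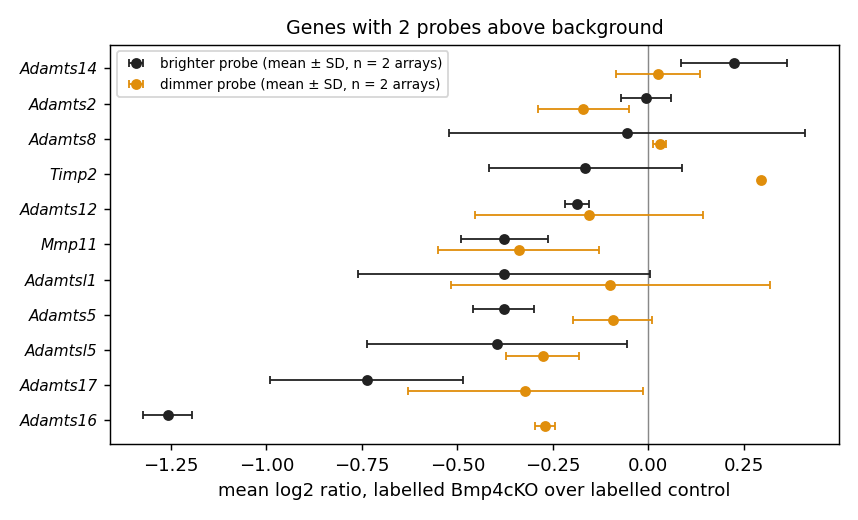
Mean log2 ratio of Bmp4cKO-labelled RNA over control-labelled RNA (horizontal axis) for the brighter (black) and the dimmer (orange) probe of the 11 member genes with both probes tested; bars are SD over 2 arrays and are narrower than the symbol for the dimmer Timp2 probe. The probes of Adamts16 are far apart, and those of Timp2 and Adamts8 lie on opposite sides of 0.

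Other genes of extracellular proteolysis were listed for comparison, with each gene represented by its brightest probe above background, and limma called none of the 37 tested, of which 3 were higher and 5 lower at an unadjusted p under 0.05. The lists held other inhibitors and regulators of MMPs (7 of 7 passed the filter), the plasminogen system (5 of 8), ADAM proteases (8 of 8), astacin proteases and their enhancers (4 of 7), pro-protein convertases (4 of 4) and substrates of ADAMTS proteases (9 of 11). Their median log2 ratios were -0.01, 0.25, -0.03, -0.09, 0.04 and -0.21 in the same order. Adam33, a membrane-anchored relative of the ADAMTS proteases, was the nearest to the threshold, with -0.67 and -0.73 on the 2 arrays for its brightest probe (limma adjusted p = 0.0650) and -0.93 and -0.72 for its second (limma adjusted p = 0.0559). The brightest one passed with normexp at offset 0 (limma adjusted p = 0.0392). By the brightest probe, the 2 genes with the largest mean in each other list were Tfpi2 (0.53) and A2m (-0.50), Plat (-0.41) and Plaur (0.32), Pcolce2 (0.55) and Bmp1 (-0.35), Pcsk5 (-0.25) and Pcsk7 (0.10), and Fbn2 (-0.47) and Vwf (-0.43), with Adam10 (0.36) beside Adam33. A dimmer probe of Tll1 had a larger mean than the genes named from its list (-0.72; limma adjusted p = 0.0699). That probe was not above background in Bmp4cKO-labelled RNA of replicate 2 and passed the filter only through control-labelled RNA. A dimmer probe of Spock1 was not above background in either Bmp4cKO-labelled RNA and was at least 1.19-fold lower there (limma adjusted p = 0.121). This probe passed the filter only through control-labelled RNA, so its direction is not read as a result. The brightest Spock1 probe gave a mean of -0.01. Pcolce2 and A2m, a collagen processing enhancer and a broad protease inhibitor, each missed the background threshold in 1 of 4 channels. Pcolce2 passed the filter only through Bmp4cKO-labelled RNA and A2m only through control-labelled RNA, in each case the label where it was higher. Both passed the test in some settings, with processed signals at 1.27 and -1.11 (limma adjusted p = 0.0286 for both). Their directions are not read as results, though Pcolce2 is among the 3 and A2m among the 5 counted above.

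Markers of other tissues differed in direction between and within their lists. Kidney markers, of which 5 of 5 passed the filter, included 2 called lower in Bmp4cKO-labelled RNA, Wt1 (-1.34) of the nephron lineage and Ret (-1.20) of the ureteric bud tip. The other 3 were not called: Six2 of the nephron progenitors had 1.21 and -0.99 on replicates 1 and 2, and the means were -0.10 for Foxd1 of the renal stroma and -0.34 for Wnt11 of the bud tip. The summed processed signal of the 5, most of it Foxd1, was 15189 and 19945 in Bmp4cKO-labelled RNA and 18451 and 24880 in control-labelled RNA, and no kidney marker was below background in every channel. The direction of Wt1 and Ret is that of Adamts18, Adamts16 and Adamts6, and the part of kidney cells in those values was not tested. Urothelial markers had a summed processed signal of 16475 and 20655 in Bmp4cKO-labelled RNA and 4436 and 4244 in control-labelled RNA, and smooth muscle markers 30540 and 45345, against 18763 and 15914. Their direction is that of Timp4 and Mmp19, and their part in those values was not tested either. Endothelial markers were higher on both arrays for 6 of 6 genes without a call in limma (4 at an unadjusted p under 0.05, median 0.42). Macrophage, cartilage and bone markers had medians of 0.33, 0.14 and 0.65 without a call in limma (2, 1 and 2 at an unadjusted p under 0.05). In whole ureters, fewer cells of a type and less RNA per cell cannot be told apart.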

How the data were processed

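Total RNA of E14.5 ureters was compared on 2 two-colour arrays. Per the file headers, the authors quantified spots with Agilent Feature Extraction 10.7.3.1. The deposited spot, background and processed signals are intensities on a linear scale, and the log ratio, also deposited, is on the log10 scale (red over green). The score in the authors' deposited value table is a signed fold: in size it matched the scanner's log ratio within 0.01 (log2) for 99.7% of probes above background, and its sign is that of red over green on replicate 1 but of green over red on replicate 2. Both columns have a median of 1. By the dye labels, its sign is therefore that of control-labelled over Bmp4cKO-labelled RNA on both arrays. The sources used here do not themselves state which RNA its sign puts on top.

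In limma 3.58.1 under R 4.3.3, mean signals were background-corrected with normexp (offset 50) and loess-normalized within arrays, with control spots at weight 0. Normalised intensities are per channel after Aquantile scaling and include the offset, which draws the ratios of dim probes towards 0. Spots of a probe were averaged after leaving out outlier marks, and 27676 probes passed the filter. Ratios were fitted with lmFit and eBayes (4.07 prior degrees of freedom) and tested on the log2 scale of the deposited intensities, with Benjamini-Hochberg adjustment. A lower bound ("at least") sets the brighter group's mean against the lowest signal that was well above background, where the dimmer group was not well above background. Where the dimmer group's own signal exceeded that lowest signal, its own signal was used. For Mmp9 this gave the plain ratio, so no bound is stated for it. Both RNAs of an array were hybridised together, so the array is the block in the ratio. Both arrays lie on 1 slide. Nothing says that the RNAs came from separate litters, so the p-values measure only the spread between these arrays. The fit was tested on simulated data.

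Gene names are the array's. Of 68 member accessions, 64 were in a RefSeq table of assembly GRCm38.p6, all with the array's symbol. The members and lists were chosen with earlier results of these data known. Named genes were Bmp4 and Tbx18, called members, members at least 1.5-fold changed alike on both arrays, members above background under 1 label only, the TIMPs, Mmp2 and Mmp14, in each role group the brightest member and the one with the largest mean, members whose probes differ in sign, and the 2 largest means of each list, over the brightest tested probe of each listed gene. Adamts4, Adamts5, Adamts7, Adamts9, Adamts17 and the members given by their mean alone were added after their values were seen. Alternatives covered background, normalization, filter, probes per gene, variance prior, block, dye, sex chromosomes, leaving out each array, and the authors' table.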

Additional observations from a re-analysis of the deposited data

Results flagged for a closer look

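In 10 of the 49 member probes tested the 2 arrays gave opposite signs, among them 4 of the named ones. The log2 ratio of replicate 2 minus that of replicate 1 was 0.66 for the brighter Adamts8 probe, 0.092 for Adamts2, 0.44 for Mmp23 and -0.36 for the first Timp2 probe. In the channel terms of both arrays, Adamts8, Adamts2 and Mmp23 were higher in red and Timp2 higher in green. The arrays carry different sex labels and opposite dyes, and the difference was not tested.

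Among the ADAMTS substrates, 3 fibrillar collagen genes, chosen after their values were seen, had larger differences of the same kind. The log2 ratio of replicate 2 minus that of replicate 1 was 2.38 for Col1a1, 1.89 for Col1a2 and 2.48 for Col3a1. Each was lower in Bmp4cKO-labelled RNA on replicate 1 and higher on replicate 2, so it was higher in the red channel of both arrays, and none of these differences was tested.

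Mmp7, the matrilysin, took no part in the comparison. It was above background only in Bmp4cKO-labelled RNA of replicate 1, with a normalised intensity of 118.4, against 110.4 in control-labelled RNA of that array. On replicate 2 it measured 119.7 in Bmp4cKO-labelled RNA and 120.7 in control-labelled RNA, neither above background.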

How the results depend on the processing

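With 2 arrays and 1 residual degree of freedom per probe, the counts of calls depended on how the variance was shared and the background corrected, while the log2 ratios of the called members kept their direction under every alternative except the sign of the authors' table; the cause of each change was not tested. Calls over all probes, higher and lower, numbered 689 and 772 with an intensity trend, 535 and 618 with normexp at offset 0, 439 and 512 with plain subtraction, 386 and 442 with processed signals, and 0 and 0 under median centring by limma, and 413 were lower with a robust prior. Under median centring no member was called higher (0) or lower (0), with adjusted p between 0.282 and 0.344 for Bmp4, Tbx18 and the 5 members otherwise called. At an unadjusted p under 0.05 it left 1024 probes higher and 1125 lower, 3 and 6 of them members. Members called lower numbered 5 with the trend and 5 at offset 0. In the fit with no replicate block, without or with a dye term, 1 member was called higher and 2 lower (Mmp19 and Adamts6 were lost), and with all 4 channels above background 1 was called higher. Members at least 1.5-fold lower numbered 7 with processed signals. Leaving out 1 array, the counts ranged from 2 to 4 higher and from 6 to 8 lower, with no test. The Adamts median was -0.31 with processed signals and between -0.255 and -0.166 when 1 array was left out. The Timp median was 0.234 with plain subtraction and at offset 0, 0.229 with processed signals, 0.280 under median centring, 0.204 with 1 probe a gene, 0.236 without sex chromosomes, and between 0.295 and 0.296 when 1 array was left out. Adamts2 turned to 0.021 under median centring. Leaving out 1 array put Adamts2 between -0.051 and 0.040, the brighter Adamts8 probe between -0.386 and 0.275, Mmp23 between -0.169 and 0.273 and the first Timp2 probe between -0.344 and 0.015.

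With the authors' table in its own sign, the values given here turned direction. It called 506 probes higher and 441 lower, and of the members 6 were at least 1.5-fold higher and 2 lower. Its medians were 0.20 over members, 0.076 for Mmp, 0.31 for Adamts, 0.18 for Adamtsl and -0.23 for Timp. Its log2 values were -3.41 for Bmp4, -0.99 for Tbx18, 2.02 for Adamts18, 1.47 and 0.37 for the Adamts16 probes, 0.93 for Adamts6, -1.10 for Mmp19, -1.47 for Timp4, 0.71 for Adamts15, 0.66 for Adamts3, 0.27 for Adamts19, 0.041 for Adamts2, 0.061 and -0.012 for the Adamts8 probes, -0.45 for Adamts1, 0.42 for Adamtsl5, 0.19 for Mmp2, -0.90 for Mmp9, 0.12 for Mmp14, 0.59 for Mmp17, 0.36 for Mmp11, -0.0064 for Mmp23, -0.23 for Timp1, 0.21 and -0.29 for the Timp2 probes, and -0.14 for Timp3. Outside the members they were 0.74 for Adam33, -0.39 for Adam10, -1.26 for Pcolce2, 0.34 for Bmp1, -0.67 for Tfpi2, 0.83 for A2m, 0.44 for Plat, -0.35 for Plaur, 0.28 for Pcsk5, -0.11 for Pcsk7, 0.50 for Fbn2 and 0.46 for Vwf. Of the other values of single probes, 490 kept their direction and, where a test was run, their side of the threshold, 16 gained a call and 12 lost one. The 490 include values from 1 array alone, which had no test and show only that the direction was kept. Signal over background limits the dim probes, and 17 member probes had no channel above it.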
